A study of Mus musculus with 12 samples.

Results

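The genes of the immunoproteasome and of class I peptide loading measured here were Tap1, Tap2, Tapbp, Psmb8, Psmb9, Psmb10, Psme1, Psme2 and Erap1, 9 of 19935 genes on the array. They were picked by name, as genes that cut, transport, trim or load peptides for MHC class I. Earlier results of these data were known when they were picked. The shares of all genes given below are therefore a description and no independent test of the set. A gene's value was the average of the probe sets that carry its symbol alone. Each of the 9 had exactly 1 such probe set. RNA came from bone marrow cells of male C57BL/6J mice aged 10 to 12 weeks, enriched with magnetic beads for CD71, the iron-uptake receptor that marks dividing red cell precursors. There were 4 groups of 3 mice, with 1 array per mouse. CD70TG*Ifng-/- mice carried a CD70 transgene and lacked Ifng, the gene for interferon-gamma. CD70TG mice carried the transgene with Ifng intact, and the labels give their clone as F13. Ifng-/- mice lacked Ifng and had no transgene, and WT mice had neither change. CD70 is the ligand of CD27, a costimulatory receptor of T cells. The labels name neither the promoter of the transgene nor the part of Ifng that was removed, so the Ifng probe set does not check them. It lay between -0.11 and 0.20 on CD70TG*Ifng-/- arrays and between -0.11 and 0.05 on CD70TG arrays (log2, relative to its median), against -0.16 to -0.01 on Ifng-/- arrays and -0.09 to 0.16 on WT arrays. Cd70 was not called either, with a difference of 0.39 ± 0.12 in CD70TG*Ifng-/- against Ifng-/- (SE, n = 3 per group, limma adjusted p = 0.135) and of 0.26 ± 0.12 in CD70TG against WT (adjusted p = 0.18). Its arrays did not overlap in either comparison.

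Class I molecules show peptides from inside the cell to CD8+ T cells. The peptides are cut by the proteasome, whose catalytic subunits Psmb5, Psmb6 and Psmb7 are replaced by Psmb8, Psmb9 and Psmb10 when a cell builds immunoproteasomes. The transporter formed by Tap1 and Tap2 pumps the peptides into the endoplasmic reticulum, where Erap1 trims them and Tapbp holds empty class I molecules at the pump. Interferon-gamma is a known inducer of these genes, and the factor Irf1 is part of that response. In red cell precursors class I is known to decline as the cells mature.

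The 9 genes lie on 4 chromosomes, and 5 of them are on chromosome 17. There Psmb9, Tap1, Psmb8 and Tap2 follow each other with no other coding gene in between, inside the MHC region. Tapbp is on the same chromosome, with none of these genes as its next coding neighbour. Psme1 and Psme2 on chromosome 14 have 1 coding gene, Emc9, between them. Erap1 is on chromosome 13 and Psmb10 on chromosome 8. Promoter windows of 300 bases, from 250 before the annotated start to 50 after it, were taken from RefSeq on the mouse build GRCm38.p6 and were held for 8 of the 9 genes, with 9 windows because Psme2 has a pair of starts. The windows printed here are those of Tap1, which reads away from Psmb9, and of the 3 genes in which an interferon motif was found. Capitals mark 3 motifs searched on both strands, which did not overlap in the printed windows. These are GAAANNGAAA (the core of an interferon-stimulated response element), TTCNNNGAA (an interferon-gamma activated site) and GGGCGG (a GC box), and each window is given 5′ to 3′ along its gene.
Tap1 (chr17:34187306-34187605, + strand): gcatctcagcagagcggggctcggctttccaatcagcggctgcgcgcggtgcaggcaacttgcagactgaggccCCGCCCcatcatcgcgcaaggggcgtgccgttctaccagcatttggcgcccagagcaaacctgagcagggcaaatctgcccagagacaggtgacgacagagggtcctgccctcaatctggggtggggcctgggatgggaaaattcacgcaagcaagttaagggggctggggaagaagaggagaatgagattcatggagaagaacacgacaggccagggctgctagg
Erap1 (chr13:74639603-74639902, + strand): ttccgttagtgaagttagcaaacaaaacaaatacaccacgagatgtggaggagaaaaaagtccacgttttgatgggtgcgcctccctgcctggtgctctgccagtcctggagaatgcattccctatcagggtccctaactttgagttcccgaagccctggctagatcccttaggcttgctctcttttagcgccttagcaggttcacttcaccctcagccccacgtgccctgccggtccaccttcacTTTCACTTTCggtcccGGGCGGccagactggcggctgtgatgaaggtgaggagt
Psme1 (chr14:55578244-55578543, + strand): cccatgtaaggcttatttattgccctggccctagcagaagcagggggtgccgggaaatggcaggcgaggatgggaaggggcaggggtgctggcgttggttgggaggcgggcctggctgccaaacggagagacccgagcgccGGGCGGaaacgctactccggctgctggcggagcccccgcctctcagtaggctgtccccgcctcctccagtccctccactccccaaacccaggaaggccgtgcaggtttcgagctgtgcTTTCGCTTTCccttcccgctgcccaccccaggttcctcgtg
Psmb8 (chr17:34197945-34198244, + strand): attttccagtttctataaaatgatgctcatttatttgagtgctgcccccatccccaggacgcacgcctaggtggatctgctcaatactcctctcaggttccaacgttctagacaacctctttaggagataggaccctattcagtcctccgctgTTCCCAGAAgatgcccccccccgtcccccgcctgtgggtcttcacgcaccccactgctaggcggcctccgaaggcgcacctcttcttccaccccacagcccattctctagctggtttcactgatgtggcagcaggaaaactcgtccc

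The starts of Tap1 and Psmb9 lie 226 bases apart on opposite strands, so their windows share 275 of 300 bases, and the GC box in capitals for Tap1 is also that of Psmb9. GAAANNGAAA was found in 2 of the 8 genes. In Erap1 it reads TTTCACTTTC on the printed strand and spans the annotated start, from position -4 to 5 with the start at 0. In Psme1 it reads TTTCGCTTTC and lies at 9 to 18. Of all 27025 genes with a window in the table, 3.99% held this motif. TTCNNNGAA was found in 1 of the 8 genes, Psmb8, where it reads TTCCCAGAA at -97 to -89, and in 9.55% of all genes. The GC box was found in 6 of the 8 genes and in 38.2% of all genes. Psmb10 had none of the 3 motifs in its window. A match is a run of letters and not a shown binding site.

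**Figure D1:**
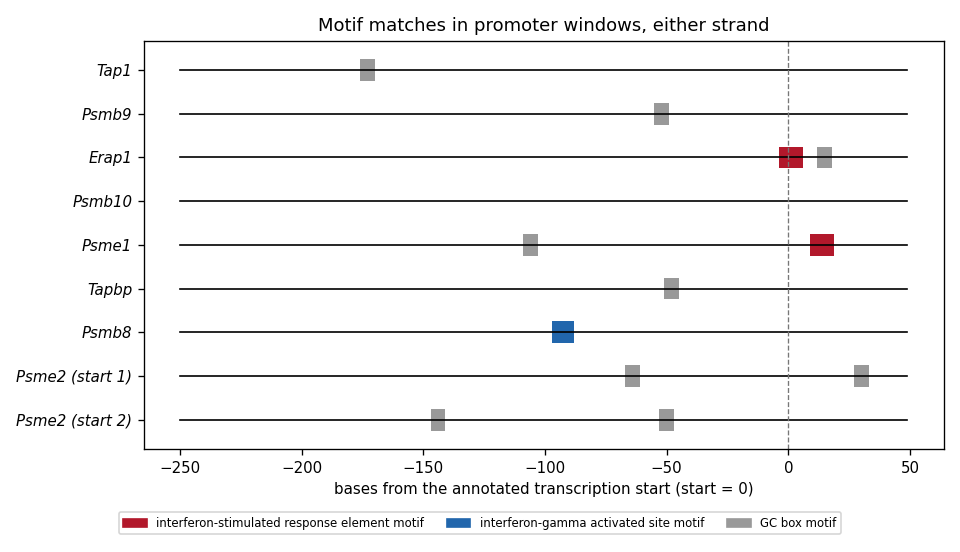
Positions of 3 motifs in the promoter windows of 8 of the 9 genes, in bases from the annotated start, each line being 1 window and each block 1 match on either strand. Response element motifs sit at the starts of Erap1 and Psme1, the activated site motif sits in Psmb8 alone, and the 4 other genes with a match hold GC boxes only.

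The deposited values are log2 values made with RMA, and each probe set is centred on its own median over the 12 arrays. A value of 1 therefore stands for a doubling against that median, and levels cannot be compared between genes. Sizes of change are compared between genes below, but whether their probe sets respond alike to RNA was not tested. The rounding of the numbers shows which probe sets had an original log2 level of at least 8 on every array that was read, a class that held 15.2% of all probe sets. Arrays less than 0.001 from the median, or 1 or more from it, were not read. Tapbp and Psme1 were in this class and the other 7 genes were not. All 8 measured markers of red cell precursors were in it, among them Gata1, Klf1 and Tfrc, and so were 4 of 13 neutrophil markers. It held 1 of 15 macrophage markers, 0 of 11 B cell markers, 0 of 15 T and NK cell markers and 0 of 10 dendritic cell markers. Replicates are separate mice, and differences were tested with limma over 19935 genes, with adjusted p-values by the Benjamini-Hochberg method and a threshold of 0.05.

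Where Ifng was intact, mice with the transgene had higher levels of every one of the 9 genes. All 9 passed the test in CD70TG against WT, where 8.23% of all genes were called higher and 2.7% lower, and the changes ran from 1.41-fold for Tap2 to 3.13-fold for Tap1. The median change of the 9 was 0.84 on the log2 scale, against -0.02 over all genes. On all 3 CD70TG arrays each of the 9 lay above all 3 WT arrays, as did 17.6% of all genes, while 13.5% lay below. In bulk RNA of this kind, a change in which cells were collected and a change in RNA per cell cannot be told apart.

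Of the peptide transporter, Tap1 moved more than its partner. Tap1 stood at -0.33, -0.39 and -0.18 on CD70TG*Ifng-/- arrays, at 1.53, 2.00 and 1.70 on CD70TG arrays, at 0.10, -0.21 and 0.02 on Ifng-/- arrays and at -0.13, -0.02 and 0.45 on WT arrays. The CD70TG arrays are far above the other 9 arrays, which lie within 1 unit of each other. The change in CD70TG against WT was 1.65 ± 0.15 (SE, n = 3 per group, limma adjusted p = 1.84e-05). Tap2, which pairs with Tap1 in the transporter, stood at -0.02, -0.11 and -0.04 on CD70TG*Ifng-/- arrays, at 0.32, 0.54 and 0.59 on CD70TG arrays, at 0.10, -0.21 and -0.0012 on Ifng-/- arrays and at -0.20, 0.0012 and 0.16 on WT arrays. Here too the CD70TG arrays are the highest of all, but the change was 0.49 ± 0.11 (adjusted p = 0.00975). Within arrays, Tap1 changed by 1.15 more than Tap2 on the log2 scale (95% interval 0.94 to 1.36, adjusted p = 1.37e-05), a pair compared after its values had been seen. Tapbp, or tapasin, which bridges the transporter and empty class I molecules, stood at -0.02, -0.10 and -0.09 on CD70TG*Ifng-/- arrays, at 0.48, 0.56 and 0.52 on CD70TG arrays, at 0.06, -0.06 and 0.03 on Ifng-/- arrays and at -0.31, -0.10 and 0.02 on WT arrays. Its CD70TG arrays are close together and apart from all others, with a change of 0.65 ± 0.08 (adjusted p = 0.00034).

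The 3 inducible catalytic subunits were all higher in CD70TG than in WT, by unequal amounts. Psmb9 stood at -0.28, -0.20 and -0.37 on CD70TG*Ifng-/- arrays, at 1.46, 1.69 and 1.93 on CD70TG arrays, at 0.13, -0.28 and 0.02 on Ifng-/- arrays and at -0.02, -0.02 and 0.36 on WT arrays. Like Tap1, its divergent neighbour, it was far higher on CD70TG arrays than elsewhere, by 1.59 ± 0.13 against WT (3.01-fold, adjusted p = 1.41e-05). The difference between the changes of Tap1 and Psmb9 was 0.06 (95% interval -0.20 to 0.32, adjusted p = 0.802). Psmb10 stood at -0.28, -0.20 and -0.12 on CD70TG*Ifng-/- arrays, at 0.76, 1.26 and 1.38 on CD70TG arrays, at -0.16, -0.06 and -0.08 on Ifng-/- arrays and at 0.06 on each WT array. The WT arrays are tight and the CD70TG arrays spread, with CD70TG 1 the lowest of its group, and the change was 1.07 ± 0.12 (2.10-fold, adjusted p = 0.000136). Psmb8 stood at -0.41, -0.49 and -0.66 on CD70TG*Ifng-/- arrays, at 0.24, 0.68 and 0.99 on CD70TG arrays, at 0.20, -0.36 and -0.03 on Ifng-/- arrays and at -0.14, 0.13 and 0.03 on WT arrays. Its lowest CD70TG array is only just above the highest WT array, and the change was 0.63 ± 0.17 (1.55-fold, adjusted p = 0.0272). Within arrays, Psmb9 changed by 0.96 more than Psmb8 (95% interval 0.72 to 1.20, adjusted p = 0.00015) and by 0.52 more than Psmb10 (0.23 to 0.80, adjusted p = 0.026), both pairs compared after their values had been seen.

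The activator that opens the proteasome core is a ring of the products of Psme1 and Psme2. Psme1 stood at -0.15, -0.27 and -0.21 on CD70TG*Ifng-/- arrays, at 0.67, 0.78 and 0.85 on CD70TG arrays, at 0.22, -0.02 and 0.02 on Ifng-/- arrays and at -0.26, -0.10 and 0.13 on WT arrays. Psme2 stood at -0.14, -0.24 and -0.39 on CD70TG*Ifng-/- arrays, at 0.35, 0.59 and 0.82 on CD70TG arrays, at 0.21, -0.09 and -0.02 on Ifng-/- arrays and at -0.04, 0.15 and 0.02 on WT arrays. Both were highest on CD70TG arrays, and CD70TG*Ifng-/- arrays lay below all Ifng-/- arrays. Against WT, Psme1 was 0.84 ± 0.10 higher in CD70TG (1.79-fold, adjusted p = 0.000181) and Psme2 0.54 ± 0.12 higher (1.46-fold, adjusted p = 0.00989), and the difference between these changes did not pass (0.30, 95% interval 0.08 to 0.52, adjusted p = 0.0794). Erap1, the aminopeptidase that trims peptides in the endoplasmic reticulum, stood at -0.04, -0.45 and -0.08 on CD70TG*Ifng-/- arrays, at 0.89, 1.13 and 1.20 on CD70TG arrays, at 0.14, 0.05 and -0.21 on Ifng-/- arrays and at -0.23, -0.04 and 0.04 on WT arrays. It was the third of the 9 by size of change, 1.15 ± 0.13 higher in CD70TG than in WT (2.22-fold, adjusted p = 0.000105).

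**Figure D2:**
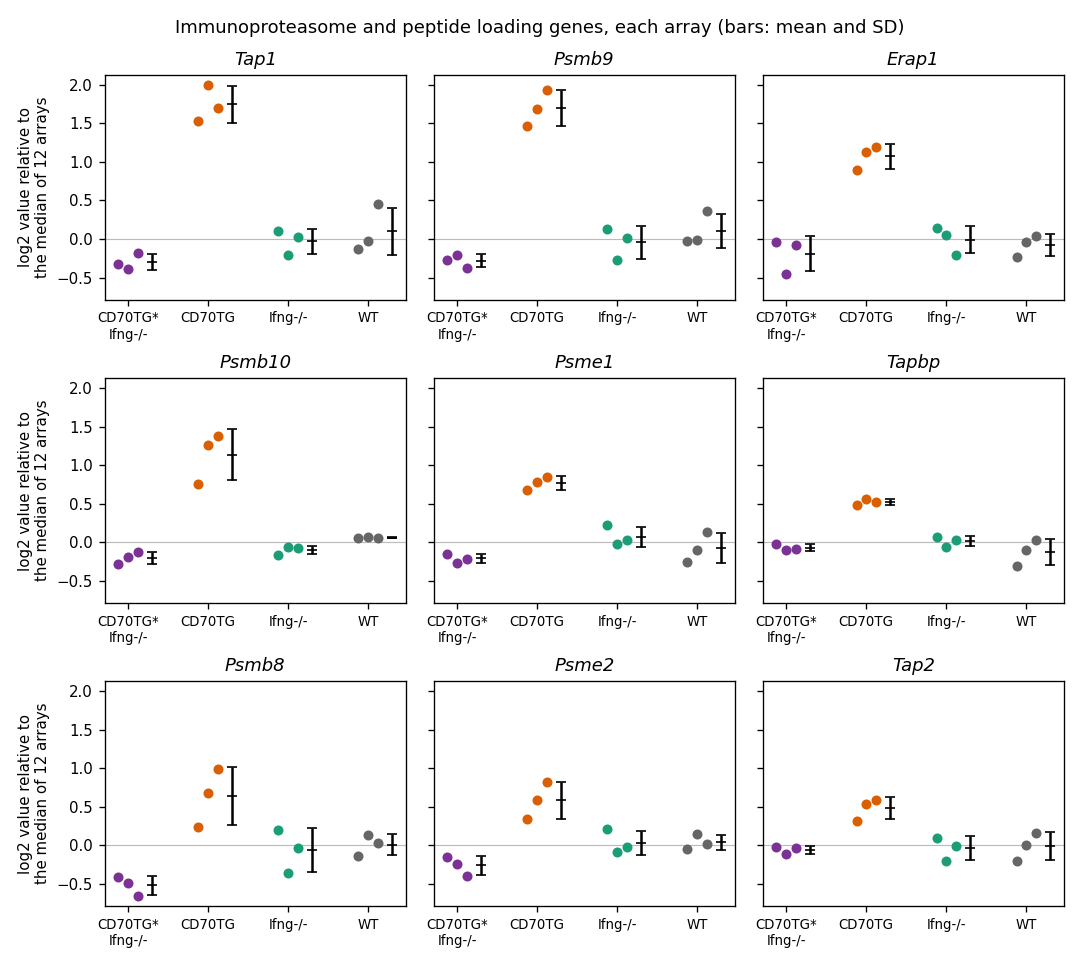
Value of each gene on every array (log2, relative to the gene's median over the 12 arrays), by group, with the group mean and SD (n = 3 mice) as a bar beside the points. For all 9 genes the 3 CD70TG arrays lie above every other array, from 0.24 for the lowest CD70TG array of Psmb8 to 2.00 for the highest of Tap1.

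Ordered by the change in CD70TG against WT, the genes were Tap1, Psmb9, Erap1, Psmb10, Psme1, Tapbp, Psmb8, Psme2 and Tap2. For no 2 neighbours in this order did the difference between their changes pass the test within arrays (adjusted p between 0.074 and 0.952). The rises of Tap1, Tapbp, Psmb9, Psmb10, Psme1 and Erap1 passed without any single array. In the fit that left out WT 1, Tap2 (adjusted p = 0.0551), Psmb8 (0.115) and Psme2 (0.052) did not pass, which left 6 of 9. Psmb8 was also lost when WT 3 (adjusted p = 0.0661), CD70TG 2 (0.0894) or CD70TG 3 (0.0715) was left out. With CD70TG 3 and Ifng-/- 2 both left out, a pair chosen after seeing the data, all 9 passed. When the deposited, already centred values were quantile normalized, the change of Tap1 was 1.08 in place of 1.65 and that of Psmb9 1.15 in place of 1.59. This step gives the centred values the same distribution on every array, and it does not repeat a step of RMA on signal levels. Psmb9 was then above Tap1, with Erap1 at 1.05, Psmb10 at 0.95, Psmb8 at 0.58 and Tap2 at 0.49. The differences of Tap1 from Tap2 and of Psmb9 from Psmb8 and Psmb10 were not tested on those values.

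Where Ifng was missing, no rise of any of the 9 genes was detected with the transgene. Limma compared CD70TG*Ifng-/- with Ifng-/- and called 0 of 9 in either direction, where 0.156% of all genes were called higher and 2.35% lower. All 9 estimates were below 0, from -0.46 ± 0.17 for Psmb8 to -0.02 ± 0.11 for Tap2, with a median of -0.24 against 0.04 over all genes. The upper ends of the 95% intervals lay at 0.20 or below, so a rise as large as the estimate in CD70TG against WT lay outside the interval for each gene. Psmb8, Psme1 and Psme2 lay lower on all 3 CD70TG*Ifng-/- arrays than on all 3 Ifng-/- arrays, as did 7.09% of all genes, while 9.32% lay higher. These 3 also had an unadjusted p under 0.05 (limma, 0.0151, 0.0127 and 0.0242), with adjusted p between 0.224 and 0.303. With arrays weighted by their quality the fit called these 3 genes lower (Psmb8 -0.59, adjusted p = 0.00842, Psme1 -0.28, adjusted p = 0.0478, Psme2 -0.37, adjusted p = 0.023).

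The direct test of whether the transgene acted differently with and without Ifng is the interaction, the change in CD70TG against WT minus that in CD70TG*Ifng-/- against Ifng-/-. It was above 0 for all 9 genes and passed for 8, where 1.61% of all genes passed in this direction. It was 1.91 ± 0.21 for Tap1 (limma adjusted p = 0.000791), 1.83 ± 0.19 for Psmb9 (0.000675), 1.33 ± 0.18 for Erap1 (0.00299), 1.17 ± 0.17 for Psmb10 (0.0052) and 1.13 ± 0.14 for Psme1 (0.00208). It was 1.09 ± 0.23 for Psmb8 (0.0344), 0.84 ± 0.16 for Psme2 (0.0237) and 0.73 ± 0.12 for Tapbp (0.00935). For Tap2 it was 0.52 ± 0.15 and did not pass (adjusted p = 0.0892). The interaction of Psmb8 did not pass in 8 of the 12 fits that left out 1 array, with adjusted p up to 0.112, and that of Psme2 in 5 of them, up to 0.0791. These were the fits without WT 1, WT 3, CD70TG 2, CD70TG*Ifng-/- 2 or CD70TG*Ifng-/- 3 for both genes, and without CD70TG 3, Ifng-/- 1 or Ifng-/- 3 for Psmb8.

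Among transgenic mice, loss of Ifng was accompanied by lower levels of all 9 genes. All 9 passed as lower in CD70TG*Ifng-/- against CD70TG, where 0.988% of all genes were called lower and 0.426% higher. For none of the 9 did the arrays of these groups overlap, and over all genes 8.27% lay lower in this way and 9.31% higher. Tap1 was 4.12-fold lower in CD70TG*Ifng-/- (-2.04 ± 0.15 on the log2 scale, limma adjusted p = 3.25e-06) and Psmb9 3.95-fold lower (-1.98 ± 0.13, adjusted p = 2.59e-06). Psmb10, Erap1 and Psmb8 were 2.52-fold, 2.40-fold and 2.23-fold lower, and Psme1, Psme2, Tapbp and Tap2 between 1.97-fold and 1.45-fold lower. Tap2 (-0.54 ± 0.11, adjusted p = 0.0175) lost its call without CD70TG 2, CD70TG 3, CD70TG*Ifng-/- 2 or CD70TG*Ifng-/- 3 (adjusted p between 0.083 and 0.105). This comparison and CD70TG against WT share the CD70TG arrays.

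In mice without the transgene, no effect of Ifng loss on the 9 genes was detected. In Ifng-/- against WT limma called 0 of 9 at the adjusted threshold, 0 of 9 at an unadjusted p under 0.05 and 0 with weighted arrays. Over all genes 0.00502% were called higher and 0% lower. The estimates ran from -0.16 ± 0.12 for Psmb10 to 0.15 ± 0.10 for Psme1, and the 95% intervals of the 9 genes lay between -0.44 and 0.36. Psmb10 lay lower on all 3 Ifng-/- arrays than on all 3 WT arrays, as did 9.17% of all genes, while 9.43% lay higher. Both changes together, CD70TG*Ifng-/- against WT, also gave limma calls for 0 of 9, where 0.446% of all genes were called higher and 1.34% lower. Of the 9 estimates 8 were below 0, and 5 genes had an unadjusted p under 0.05 and lay lower on all 3 CD70TG*Ifng-/- arrays than on all 3 WT arrays, as did 8.6% of all genes, while 14.5% lay higher. These were Psmb8 (-0.53 ± 0.17, adjusted p = 0.136), Tap1 (-0.40), Psmb9 (-0.39), Psme2 (-0.30) and Psmb10 (-0.26). With weighted arrays 3 of them were called lower, Psmb8, Psmb9 and Psme2.

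**Figure D3:**
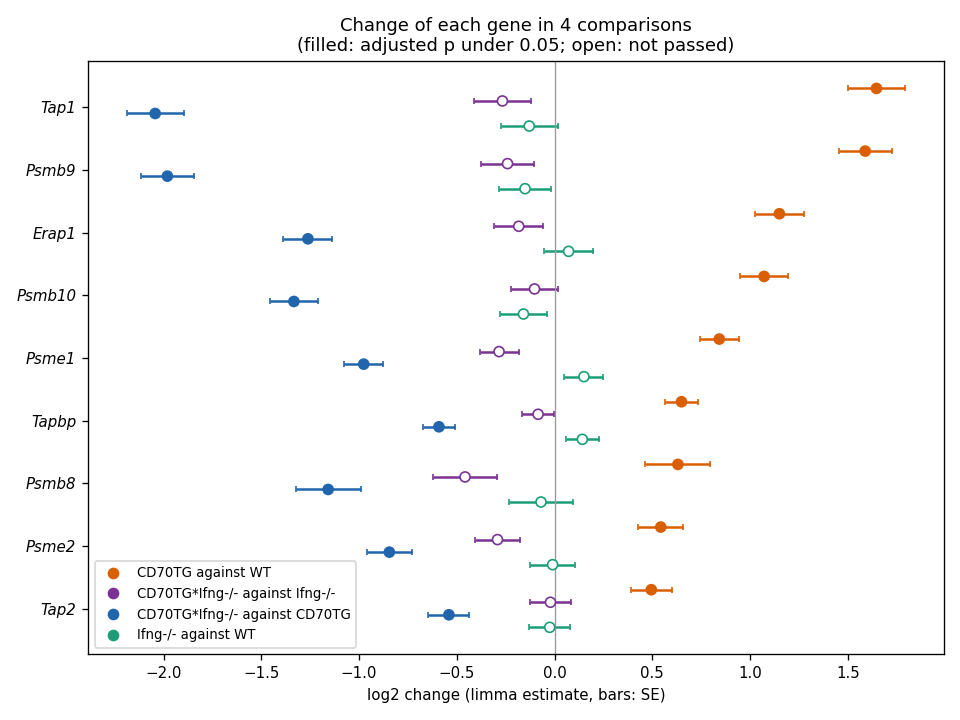
Change of each gene in 4 comparisons (log2, limma estimate with its SE, n = 3 mice per group), with filled points where the adjusted p was under 0.05. All 9 genes are higher in CD70TG against WT and lower in CD70TG*Ifng-/- against CD70TG, and the open points of the 2 other comparisons lie between -0.46 and 0.15.

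The inducible subunits were set against the constitutive subunits whose place they take. In CD70TG against WT the constitutive Psmb5, Psmb6 and Psmb7 were also higher, by 0.33 ± 0.09, 0.44 ± 0.09 and 0.39 ± 0.10 (limma adjusted p = 0.027, 0.00955 and 0.0209). Without WT 1 only 1 of the 3 passed, and 2 passed after quantile normalization or after centring within level classes. Within arrays, Psmb9 changed by 1.15 ± 0.18 more than Psmb6 (adjusted p = 0.00153) and Psmb10 by 0.68 ± 0.17 more than Psmb7 (adjusted p = 0.0236). The second difference was lost when WT 1, WT 2, CD70TG 2 or CD70TG 3 was left out (adjusted p between 0.0538 and 0.0913). Psmb8 changed by 0.30 ± 0.15 more than Psmb5 (95% interval -0.03 to 0.63, adjusted p = 0.231), so that a difference was not shown for this pair. In an exact two-sided permutation test over the 6 arrays, p was 0.3 for Psmb8 and Psmb5, 0.2 for Psmb10 and Psmb7 and 0.1 for Psmb9 and Psmb6. With 3 against 3 arrays this p cannot go below 0.1.

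A further pair sets the inducible activator against Psme3, the gene of the related nuclear activator, which is not known as a class I gene. Psme3 stood at -0.31, -0.36 and -0.46 on CD70TG arrays and at 0.02, 0.16 and 0.04 on WT arrays, so that it was lower on all CD70TG arrays (-0.45 ± 0.08, adjusted p = 0.00327). The changes of Psme1 and Psme2 exceeded that of Psme3 by 1.29 ± 0.12 (adjusted p = 2.12e-05) and 0.99 ± 0.14 (adjusted p = 0.000665). Of the 3 constitutive subunits 0 were called in CD70TG*Ifng-/- against CD70TG (limma, estimates -0.26 to -0.04, 1 with an unadjusted p under 0.05). There all 5 differences passed, at -1.06 for Psmb8 minus Psmb5, -1.72 for Psmb9 minus Psmb6, -1.29 for Psmb10 minus Psmb7, -1.28 for Psme1 minus Psme3 and -1.15 for Psme2 minus Psme3 (adjusted p between 3.78e-05 and 0.00148). Psme3 stood at -0.21, 0.004 and -0.03 on CD70TG*Ifng-/- arrays, above all CD70TG arrays, a rise that was not called. This rise is part of the differences of Psme1 and Psme2 from Psme3.

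**Figure D4:**
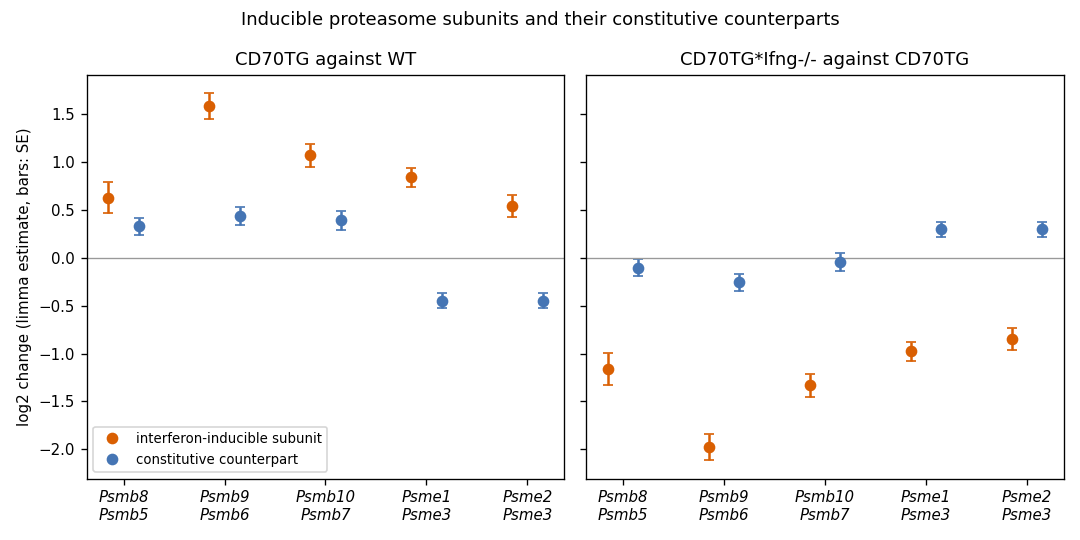
Change of each interferon-inducible proteasome gene and of its constitutive counterpart (log2, limma estimate with its SE, n = 3 mice per group) in CD70TG against WT on the left and CD70TG*Ifng-/- against CD70TG on the right. For Psme1 and Psme2 the counterpart plotted is Psme3, the gene of a related nuclear activator. On the right the inducible genes lie between -1.98 and -0.85, and the constitutive catalytic subunits between -0.26 and -0.04. Psme3 was higher there, a rise that was not called.

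Other genes of the pathway were counted list by list. Of the 11 other core subunits of the proteasome, 7 were called higher in CD70TG against WT and 0 lower, with a median of 0.33, led by Psmb2 (0.64 ± 0.09), Psma5 (0.62 ± 0.11) and Psma4 (0.50 ± 0.09). All 11 were in the higher level class, whose 2748 genes had a median change of 0.19. After centring within level classes 3 of the 11 passed, and 3 passed without WT 3. Of the 9 other activators, inhibitors and assembly factors, the core assembly factors Pomp (0.55 ± 0.10), Psmg1 (0.61 ± 0.14) and Psmg2 (0.40 ± 0.09) were called higher and Psme3 lower. Psmb2 alone of the core subunits was called lower in CD70TG*Ifng-/- against CD70TG (-0.43 ± 0.09, adjusted p = 0.0241), and leaving out CD70TG 2, CD70TG 3, CD70TG*Ifng-/- 2 or CD70TG*Ifng-/- 3 ended the call.

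Of 13 measured partners of the loading complex and other peptidases, 7 were called higher in CD70TG against WT and 0 lower (median 0.43), and 3 passed without WT 1. The 3 with the smallest p were Sec61a1 (0.49 ± 0.09), a channel subunit of the endoplasmic reticulum, Uggt1 (0.46 ± 0.09), a folding sensor, and Npepps (0.43 ± 0.08), a cytosolic aminopeptidase. Of the 13, 2 were called lower in CD70TG*Ifng-/- against CD70TG, and both were named after their values were seen. Lap3, a leucine aminopeptidase, stood at -0.36, -0.91 and -0.63 on CD70TG*Ifng-/- arrays and at 0.13, 0.49 and 0.87 on CD70TG arrays (-1.13 ± 0.17, adjusted p = 0.00263). Tapbpl, a tapasin-like editor of class I peptides, stood at -0.10, -0.08 and -0.12 on CD70TG*Ifng-/- arrays and at 0.47, 0.60 and 0.90 on CD70TG arrays (-0.76 ± 0.11, adjusted p = 0.0015). The arrays of these groups do not overlap for either gene. Lap3 was also called lower in CD70TG*Ifng-/- against Ifng-/- (-0.71 ± 0.17, adjusted p = 0.0458), a call lost in 7 of the 12 fits that left out 1 array, of any group.

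B2m, the light chain of class I, stood at -0.69, -0.97 and -0.79 on CD70TG*Ifng-/- arrays, at 1.05, 1.04 and 0.93 on CD70TG arrays, at 0.28, -0.17 and 0.06 on Ifng-/- arrays and at -0.34, -0.06 and 0.57 on WT arrays. The CD70TG arrays are the highest and the CD70TG*Ifng-/- arrays the lowest, with no overlap of either with any other group. Its change in CD70TG against WT was 0.95 ± 0.18 (adjusted p = 0.00462), and its interaction 1.82 ± 0.25 (adjusted p = 0.00362). Unlike the 9 genes, it was called lower in CD70TG*Ifng-/- against Ifng-/- (-0.87 ± 0.18, adjusted p = 0.0132), a call that was lost without Ifng-/- 1, CD70TG*Ifng-/- 2 or CD70TG*Ifng-/- 3. Whether B2m differed from the 9 genes in that comparison was not tested. The heavy chains H2-K1 and H2-D1 had no probe set with a single symbol and were not analysed here.

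Of 12 measured genes of interferon-gamma signalling and class I control, 2 were called higher in CD70TG against WT, and up to 5 when 1 array was left out. Centring within level classes added 1 lower call, that of the kinase Jak1 (-0.27, adjusted p = 0.0381, against -0.12, adjusted p = 0.352, without that centring). Irf1, a factor that induces class I genes, stood at -0.34, -0.02 and -0.30 on CD70TG*Ifng-/- arrays, at 0.49, 0.95 and 0.95 on CD70TG arrays, at 0.12, -0.23 and -0.11 on Ifng-/- arrays and at -0.06, -0.007 and 0.15 on WT arrays. Its change was 0.77 ± 0.13 in CD70TG against WT (limma adjusted p = 0.00284), and its change in transgenic mice that lacked Ifng against those that did not was -1.01 ± 0.13 (0.000756). Nlrc5, a transactivator of class I genes averaged over 19 probe sets, changed by 0.70 ± 0.11 in CD70TG against WT (adjusted p = 0.00136) and by -0.85 ± 0.11 in CD70TG*Ifng-/- against CD70TG (0.00047). Stat2, the next by p, was not called (0.37 ± 0.12, adjusted p = 0.0651). In mice without Ifng, 4 of the 12 were called lower with the transgene, and they are named after their values were seen. In CD70TG*Ifng-/- against Ifng-/- these were the receptor chains Ifngr1 (-0.93 ± 0.19, adjusted p = 0.0167) and Ifngr2 (-0.79 ± 0.19, adjusted p = 0.0352) and the factors Irf8 (-0.74 ± 0.15, adjusted p = 0.0136) and Irf9 (-0.51 ± 0.10, adjusted p = 0.0116). Without CD70TG*Ifng-/- 3 limma called 0 of these 12.

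Among all other genes, the 5 whose values lay closest to the mean of the 9 genes over the 12 arrays were found by the root-mean-square difference on the log2 scale. They were Csf2rb2 (0.110), Trafd1 (0.113), Gbp5 (0.128), Irf1 (0.134) and Nmi (0.139). Csf2rb2 is a receptor subunit for interleukin-3, Gbp5 a guanylate-binding protein, and Trafd1 and Nmi are interferon-inducible genes. The likeness is a description over 12 arrays of 4 groups and shares their group differences.

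Within groups the 9 genes deviated to the same side on some arrays and not on others. On WT 1 and on CD70TG 1 all 9 lay under their group's mean, where 57.7% and 53.6% of all genes did. Between 7 and 8 of the 9 lay on one side on 6 other arrays, on which 42% to 54.7% of all genes lay under the mean, and 5 or 6 did on WT 2, Ifng-/- 3, CD70TG*Ifng-/- 2 and CD70TG*Ifng-/- 3. The mean of the 9 genes was between -0.27 and -0.19 on CD70TG*Ifng-/- arrays, between 0.74 and 1.11 on CD70TG arrays, between -0.14 and 0.11 on Ifng-/- arrays and between -0.14 and 0.14 on WT arrays.

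Markers of other cell types differed between the same groups. In CD70TG against WT, 15 of 15 macrophage markers were called lower, with a median change of -1.67, and 10 of 11 B cell markers were. The mean of the macrophage list was between -1.38 and -1.29 on CD70TG*Ifng-/- arrays, between -0.97 and -0.69 on CD70TG arrays, between 1.13 and 1.48 on Ifng-/- arrays and between 0.74 and 1.38 on WT arrays. It was low with the transgene whether Ifng was intact or not, while the 9 genes were high on CD70TG arrays alone. It was also lower in CD70TG*Ifng-/- than in CD70TG, with no overlap of the list's means. In that comparison 3 of the 15 macrophage markers were called lower (limma), and the median change was -0.48. On all CD70TG*Ifng-/- arrays 11 lay lower than on all CD70TG arrays, as did 8.27% of all genes, while 9.31% lay higher. Again 15 of 15 macrophage markers were lower in CD70TG*Ifng-/- against Ifng-/- (median -2.73), where none of the 9 genes was called. The interaction was above 0 for all 15 macrophage markers and passed as higher for 6. When 1 array was left out it passed for between 1 (without WT 1) and 12 of them. The B cell list lay between -0.17 and -0.03 on CD70TG*Ifng-/- arrays, between -0.55 and -0.44 on CD70TG arrays, between 0.05 and 0.39 on Ifng-/- arrays and between 0.13 and 0.49 on WT arrays.

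The T and NK cell list, which holds the known sources of interferon-gamma, lay between -0.13 and 0.04 on CD70TG*Ifng-/- arrays, between -0.09 and 0.17 on CD70TG arrays, between -0.09 and 0.17 on Ifng-/- arrays and between 0.04 and 0.11 on WT arrays, so that all groups overlapped. In CD70TG against WT 1 of its 15 genes, Cd4, was called lower (-0.52 ± 0.09, named after its value was seen) and 0 higher. Nkg7, also named after its value was seen, stood at -0.05, -0.10 and -0.12 on CD70TG*Ifng-/- arrays and at 0.49, 0.50 and 1.72 on CD70TG arrays. On Ifng-/- arrays it stood at 0.71, -0.16 and -0.004, and on WT arrays at -0.07, 0.004 and 0.24. Of the 15, it was the 1 that lay higher on all CD70TG arrays than on all WT arrays, and 3 lay lower. Over all genes 17.6% lay higher in this way and 13.5% lower. Of 13 neutrophil markers 4 were called lower and 1 higher, with a median of -1.28, and 10 lay lower on all CD70TG arrays than on all WT arrays. The lower calls were 0 without WT 1 and 10 without Ifng-/- 1 or without Ifng-/- 2. Of 10 dendritic cell markers 3 were called lower, 1 without WT 2 and at most 4 in the fits that left out 1 array. The neutrophil list spread most within a group, between -0.61 and 1.71 on Ifng-/- arrays. In it Elane, Mpo and Prtn3, named after their values were seen, had estimates above 0 in CD70TG against WT, and the 10 others below 0. Of these 3 only Prtn3 was called (limma adjusted p = 0.0265), and its call was lost in 3 of the fits that left out 1 array. The means of these 3 were -0.44, -0.37 and -0.31 on CD70TG*Ifng-/- arrays, 0.84, 1.13 and 0.99 on CD70TG arrays, -0.02, 0.04 and 0.07 on Ifng-/- arrays and 0.03, 0.04 and -0.09 on WT arrays. The CD70TG means lean on CD70TG 3, at 1.73, 2.03 and 1.77, while CD70TG 1 and CD70TG 2 lay between 0.27 and 0.69. For Elane CD70TG 2 (0.27) lay below WT 3 (0.31). In CD70TG*Ifng-/- against CD70TG limma called 2 of the 13 lower, Mpo (adjusted p = 0.0419) and Prtn3 (0.0343), lost in 7 and 6 of the fits that left out 1 array. Of 8 red cell precursor markers 1, Alas2, was called lower in CD70TG against WT (-0.43 ± 0.08, adjusted p = 0.00393, named after its value was seen), and the list lay between -0.17 and 0.04 on CD70TG arrays and between -0.10 and -0.04 on WT arrays. The values are centred, so no marker can be placed at 0, and the part of these cell types in the changes of the 9 genes was not tested.

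**Figure D5:**
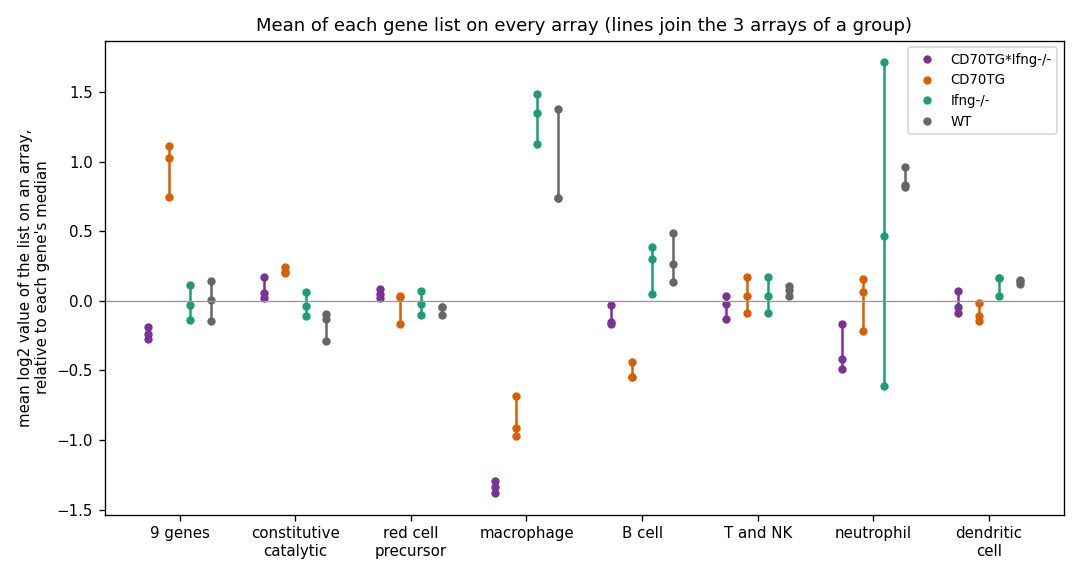
Mean value of gene lists on every array (log2, each gene set to a median of 0 on the 12 arrays), with a line joining the 3 arrays of a group. The 9 immunoproteasome and loading genes are high on CD70TG arrays alone (0.74 to 1.11), and macrophage markers are low on both groups with the transgene (-1.38 to -0.69).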

How the data were processed

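Total RNA from 12 mice, 3 in each of 4 groups, was hybridised to Affymetrix whole-transcript arrays. The authors deposited log2 values made with RMA, per the submitters' processing notes, with no version stated. Every one of 28815 probe sets had a median of 0 on the 12 arrays, so the values are relative. Log base and direction follow from RMA and no label gives them, and the reason for the centring is unknown. Signal over background is not held, and precision is limited by the number of arrays.

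Probe sets with 1 gene symbol in GEO's platform annotation, which can be old (21780, against 1605 with several and 5430 with none), were averaged into 19935 genes. Levels of at least 8 were read from the rounding of single-precision numbers. Values below 0.001 in size, or of 1 or more, were skipped, and 0.05 of a step was tolerated. Means of the 4 groups were fitted to all genes with limma 3.58.1 under R 4.3.3, using eBayes with 6.23 prior degrees of freedom beside 8 residual, after a trial on simulated data. Two-sided p-values were adjusted over the 19935 genes. Differences between genes were added as rows, with adjustment over 19952, and intervals are at 95%. No dim genes were removed.

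Alternatives were median centring, quantile normalization, centring within level classes, only the groups compared, single probe sets, robust eBayes, array weights (statmod 1.5.0), the higher level class alone, the replicate number as a block, and each array left out. Leaving out CD70TG 3 with Ifng-/- 2, and WT 1 with CD70TG 1, was added after seeing the data. No label says that replicate numbers pair the mice. With group means removed, 18 pairs of arrays with the same number correlated between -0.40 and 0.31, and 6 of them above 0.1. Pairs with unlike numbers were not compared, so this does not show whether the mice were paired. The highest correlation between arrays was 0.68, so none was a copy of another.

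The genes named are the 9 genes, their counterparts and class I regulators, the 3 genes of each further list with the smallest p in CD70TG against WT, and the 5 nearest patterns. Exceptions are marked, and Psmg1 is one. The 9 genes and the lists were chosen with earlier results of these data known. Promoter windows came from RefSeq, build GRCm38.p6, and were searched for 3 motifs.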

Additional observations from a re-analysis of the deposited data

Results flagged for a closer look

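For 8 of the 9 genes the effect of the transgene differed between mice with and without Ifng by the interaction test, the change in CD70TG against WT minus that in CD70TG*Ifng-/- against Ifng-/- on the log2 scale (limma, adjusted p under 0.05). The interaction was 1.91 for Tap1, 1.83 for Psmb9, 1.33 for Erap1, 1.17 for Psmb10, 1.13 for Psme1, 1.09 for Psmb8, 0.84 for Psme2 and 0.73 for Tapbp. In each of the 8 the change was above 0 with Ifng intact. Without Ifng the estimates were below 0, but none of the 9 genes was called.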

How the results depend on the processing

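In CD70TG against WT the 9 called genes became 6 without WT 1 and were otherwise 8 or 9, and in CD70TG*Ifng-/- against CD70TG the 9 became 8 at the fewest. Of the interactions, 6 to 8 passed when 1 array was left out. With the replicate block, Psmb8 (1.09, adjusted p = 0.0727) and Psme2 (0.84, adjusted p = 0.0614) lost the interaction call. The block changed no other call of the 9 genes, and no label says that the numbers pair mice. In CD70TG*Ifng-/- against Ifng-/- 3 genes were called lower with array weights and 1, Psmb8, without CD70TG 3 and Ifng-/- 2 (adjusted p = 0.0157). In CD70TG*Ifng-/- against WT 3 were called lower with array weights and 1 each with quantile normalization (Psmb10), with only the groups compared (Psmb8) and without CD70TG 3 and Ifng-/- 2 (Psmb8). With array weights the interaction of Tap2 passed (0.56, adjusted p = 0.0104). Psmb10 minus Psmb7 ran from 0.46 to 0.95 when 1 array was left out.

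Small uncalled estimates changed sign. In Ifng-/- against WT this was so for Psme2 (0.012) with centring within level classes, Tap2 (0.0065) and Erap1 (-0.0023) with array weights, Tap2 (0.061), Psmb8 (0.079) and Psme2 (0.050) without CD70TG 3 and Ifng-/- 2, and Erap1 (-0.0061) without WT 1 and CD70TG 1. With 1 array left out there, Tap1 ran from -0.24 to 0.045, Tap2 from -0.12 to 0.062, Psmb8 from -0.20 to 0.079, Psme2 from -0.10 to 0.050 and Erap1 from -0.0061 to 0.17. In CD70TG*Ifng-/- against WT, Tapbp was -0.057 with level class centring and -0.032 without WT 1 and CD70TG 1, and with 1 array left out it ran from -0.032 to 0.13, Tap2 from -0.14 to 0.041 and Erap1 from -0.19 to 0.020. In CD70TG*Ifng-/- against Ifng-/- Tap2 ran from -0.11 to 0.047. The causes were not tested.

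Over all genes, 2179 calls in CD70TG against WT became 431 to 5337 under the alternatives, 499 in CD70TG*Ifng-/- against Ifng-/- became 297 to 1439, 282 in CD70TG*Ifng-/- against CD70TG became 136 to 3519, 357 in CD70TG*Ifng-/- against WT became 171 to 2044, 1 in Ifng-/- against WT became up to 42, and 377 interactions became 82 to 2040. In CD70TG*Ifng-/- against WT 24.9% of calls were higher, and 11.3% with level class centring. Keeping only genes of the higher level class left Tapbp and Psme1, so no count of the 9 genes could be made. Among the 9 genes, Psmb8, Psme2 and Tap2 were those whose calls were lost when 1 array was left out, and levels over background are unknown.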
